A study of Mus musculus with 4 samples.

Results

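A drug combination and a genetic change in the cancer cells, both of which gave tumours rich in interferon-responsive immune cells, were compared head to head by single-cell RNA sequencing of CD45+ cells from mouse melanomas. All cells of the COX2i + 5-AZA library (10032 cells) were set against all cells of the IRF3/7 library (6329 cells), together 16361 of the 34447 cells of the study. The tumours came from YUMM1.7-OVA RTT cells, an ovalbumin-bearing mouse melanoma line selected for resistance to targeted therapy, and grew in Rag2-/- mice, which have no T or B cells of their own. Every mouse received ovalbumin-specific OT-1 CD8+ T cells by adoptive transfer (ACT) on day 7, and tumours were collected on day 10, 72 h later. In the COX2i + 5-AZA group the cancer cells carried an mCherry control vector, and the mice were given the COX2 inhibitor celecoxib by mouth every day and the DNA methyltransferase inhibitor 5-azacytidine by intraperitoneal injection. In the IRF3/7 group the cancer cells carried vectors in which an SFFV promoter drove Irf3 and Irf7, the cells were sorted in bulk rather than cloned, and no drug was given. The remaining libraries served as background, CTRL (mCherry vector, no drug, 8953 cells) and COX2i (mCherry vector, celecoxib alone, 9133 cells). Each library was 1 pool of 3 tumours, so there was 1 library per group and no replicate. No test between groups was possible, every difference is one between 2 libraries, and the 95% intervals given throughout cover counting error only. The question was where the infiltrates reached by the drug and by the genetic route differ.

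IRF3 and IRF7 are transcription factors that switch on type I interferon genes when a cell senses foreign or misplaced nucleic acid. Type I interferon then acts on neighbouring cells through IFNAR and the factor ISGF3, which binds the interferon-stimulated response element (ISRE) of antiviral genes such as Isg15 and the Ifit family. Interferon-γ, made mainly by activated T cells and NK cells, acts through IRF1 among other factors and is the main inducer of Cxcl9, of the guanylate-binding proteins and of the MHC class II regulator Ciita. COX2, encoded by Ptgs2, makes the precursor of prostaglandin E2, a lipid that dampens inflammatory gene expression in myeloid cells. 5-azacytidine is incorporated into nucleic acid and traps DNA methyltransferases, which lowers DNA methylation and can raise the transcription of silenced repeats. It is also toxic to dividing cells. The drug pair acts on every cell of the mouse it reaches, whereas the transgenes act first in the cancer cells.

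The libraries differed in depth. The IRF3/7 library held 26356819 UMIs (unique molecular identifiers, each standing for 1 counted molecule), and its median cell had 3168 UMIs from 1585 genes. The COX2i + 5-AZA library held 76262645 UMIs, and its medians were 6039.5 UMIs and 2603 genes. Cells with more than 2000 detected genes made up 24.8% of the former and 71.2% of the latter. Expression was therefore compared as CPM, the UMIs of a gene scaled to 1000000 UMIs of the cells considered, and differences are log2 ratios of COX2i + 5-AZA over IRF3/7, so that negative values are higher in IRF3/7. A total of 784 droplet barcodes occurred in both libraries, or 7.81% of COX2i + 5-AZA and 12.4% of IRF3/7 cells. The assay multiplexes libraries by probe barcode within shared droplets, and no full cell name occurred in both. Cell classes were those of the deposited annotation. In the COX2i + 5-AZA library all marker genes of each of the 17 classes were higher in the cells of that class than in the other cells. The same held in the IRF3/7 library except for 2 of 7 markers of Monocyte_1 (Plac8 and Gbp2) and 1 of 6 of TAM_Spp1 (Spp1 itself).

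The overexpressed genes were examined first. The non-immune class, cells left after the CD45 sort that carried collagen and other stromal or tumour genes, had 172 cells in IRF3/7 and 160 in COX2i + 5-AZA. In these cells Irf7 (chromosome 7, 141262706 to 141266481 on GRCm38, minus strand) was measured at 14909.5 CPM in IRF3/7, at 67.1 CPM in COX2i + 5-AZA, at 8.20 CPM in CTRL and at 19.2 CPM in COX2i. Irf3 (chromosome 7, 44997648 to 45002848, plus strand) stood there at 584 CPM in IRF3/7 and at 24.5 CPM in COX2i + 5-AZA. The levels follow the labels. Of all Irf3 UMIs of the IRF3/7 library, 71.8% came from this class, and of all Irf7 UMIs 51.1%. Irf7 is itself an interferon target, and 43.3% of its UMIs came from monocytes and macrophages. In monocytes and macrophages Irf7 was 3170.3 CPM in IRF3/7 against 455 CPM in COX2i + 5-AZA (log2 ratio -2.80, -2.82 to -2.78), while Irf3 was 44.6 against 42.6 CPM (-0.07). Whether the probes read transgene RNA, endogenous RNA or both was not examined, and the origin of the Irf7 counts in immune cells was not tested.

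The drug and the genetic route gave infiltrates that were mostly monocytes and macrophages, but in different proportions. Monocytes and macrophages together were 87.7% (87.1 to 88.4) of COX2i + 5-AZA cells and 79.6% (78.5 to 80.5) of IRF3/7 cells, a ratio of 1.10. Monocytes, the blood-derived precursors that enter an inflamed tumour, were 72.6% of IRF3/7 cells and 46.7% of COX2i + 5-AZA cells, a ratio of 0.643 (0.617 to 0.670). Macrophages were 6.94% of IRF3/7 cells and 41.0% of COX2i + 5-AZA cells, a ratio of 5.92 (5.36 to 6.54). In CTRL, monocytes were 1.55% and macrophages 83.5%, and in COX2i they were 6.11% and 74.7%. Both routes thus sat far above CTRL in monocytes, with the macrophage share of the COX2i + 5-AZA library between those of IRF3/7 and COX2i. The monocyte classes Infl_Mono and Monocyte_1 were defined in part by interferon-regulated genes that differ between these libraries, so monocytes were read as a sum. Infl_Mono took 94.3% of IRF3/7 monocytes and 16.3% of COX2i + 5-AZA monocytes, and Monocyte_1 took 5.46% and 77.7%.

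The macrophages were of different kinds. The classes TAM_C1q, TAM_Spp1 and Ctsk_Macro, which the study groups as suppressive tumour-associated macrophages (TAMs), held 2273 COX2i + 5-AZA cells (22.7%) and 30 IRF3/7 cells (0.474%), a ratio of 47.8 (33.4 to 71.0). TAM_C1q (124) and TAM_Spp1 (54.1) carried this ratio, and that of Ctsk_Macro was 1.80 with an interval that includes 1 (0.933 to 3.68). Cycling TAMs held 1320 cells (13.2%) and 20 cells (0.316%), a ratio of 41.6 (26.8 to 68.4). TAM_H2Ab1, a class named after the MHC class II gene H2-Ab1, went the other way, with 4.18% of COX2i + 5-AZA and 6.08% of IRF3/7 cells (ratio 0.687, 0.596 to 0.791). It made up 87.7% of all IRF3/7 macrophages and 10.2% of COX2i + 5-AZA macrophages. The suppressive classes were 66.2% of CTRL and 39.3% of COX2i cells, so the COX2i + 5-AZA library was below both and the IRF3/7 library far below all of them.

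Lymphoid and dendritic cells also differed. NK cells, innate killers and a source of interferon-γ, were 8.97% of IRF3/7 and 4.36% of COX2i + 5-AZA cells (ratio 0.485, 0.427 to 0.551), against 0.123% in CTRL and 0.547% in COX2i. Type 2 conventional dendritic cells (cDC2), which present antigen mainly to CD4+ T cells, were 6.16% and 2.60% (ratio 0.422, 0.360 to 0.495), against 7.20% in CTRL and 7.29% in COX2i. CCR7+ DC, mature dendritic cells equipped to migrate, were 1.04% of IRF3/7 and 0.867% of COX2i + 5-AZA cells, and the interval of their ratio (0.832, 0.597 to 1.16) includes 1. The same was true of cDC1, the cross-presenting dendritic cells, at 0.600% and 0.598% (0.996, 0.653 to 1.54). For both, no difference was detectable over all cells at these cell numbers. Neutrophils were 1.95% of COX2i + 5-AZA and 0.774% of IRF3/7 cells (2.52, 1.84 to 3.53), and mast cells 0.229% and 0.0474%, the latter being 3 cells. CD8+ T cells were few in both libraries, with 7 cells in COX2i + 5-AZA and 8 in IRF3/7.

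Some of these ratios depended on how cells were kept or grouped, and so did the order of monocytes and macrophages within the COX2i + 5-AZA library, which were 39.6% and 51.8% of its cells with more than 2000 genes and 39.4% and 48.4% in clusters rebuilt at a resolution of 0.5. Among cells with more than 2000 genes, which removes more of the shallower IRF3/7 library, the NK cell ratio was 0.185 and the macrophage ratio 3.02, and the neutrophil ratio turned to 0.846 (0.359 to 2.30). The cDC1 ratio was 0.505 among these cells (0.304 to 0.864), an interval that does not include 1, that of cycling TAMs was 15.7 (9.91 to 26.6) and that of TAM_H2Ab1 0.381. When all cells were clustered again without 137 interferon-regulated genes, at a resolution of 0.5, the macrophage ratio was 32.3 and that of TAM_H2Ab1 turned to 6.78 (258 and 24 cells), and 93.5% of the IRF3/7 cells named TAM_H2Ab1 fell in a cluster in which Infl_Mono cells were the majority. At a resolution of 1 the TAM_H2Ab1 ratio was 0.0243 (1 and 26 cells), so its direction depended on the grouping. At the lower resolution clusters dominated by NK cells, cDC2, CCR7+ DC, cDC1 or neutrophils held the same class from both libraries.

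**Figure D1:**
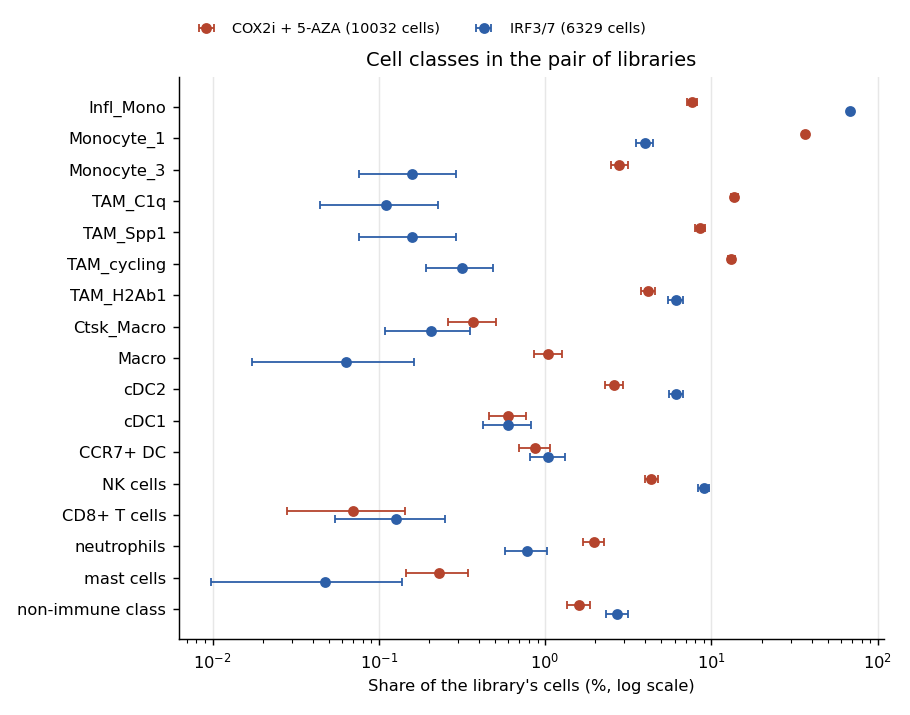
Share of each of the 17 cell classes in both libraries, in percent of all cells of a library on a log scale. Red points are COX2i + 5-AZA, blue points IRF3/7, and bars are exact 95% intervals for counting error. NK cells (4.36% and 8.97%) and cDC2 (2.60% and 6.16%) are lower in COX2i + 5-AZA, cycling TAMs (13.2% and 0.316%) higher, and the bars of CCR7+ DC and of cDC1 overlap.

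The promoters of key interferon targets are shown first, since the arms of the response are known to be read through different elements. The 250 bases before the transcription start are shown for 4 genes, 2 that follow type I interferon most closely (Isg15 and Ifit3) and the paired chemokine genes Cxcl10 and Cxcl9, which lie next to each other on chromosome 5 and bind the same receptor, CXCR3. Capitals mark the core of the ISRE, GAAANNGAA, on either strand. Sequences are from RefSeq on GRCm38.p6 and run 5′ to 3′ on the strand of the gene. The windows are chr4:156200819-156201068 for Isg15 (minus strand), chr19:34583279-34583528 for Ifit3 (plus strand), chr5:92348890-92349139 for Cxcl10 (minus strand) and chr5:92328080-92328329 for Cxcl9 (minus strand).
Isg15: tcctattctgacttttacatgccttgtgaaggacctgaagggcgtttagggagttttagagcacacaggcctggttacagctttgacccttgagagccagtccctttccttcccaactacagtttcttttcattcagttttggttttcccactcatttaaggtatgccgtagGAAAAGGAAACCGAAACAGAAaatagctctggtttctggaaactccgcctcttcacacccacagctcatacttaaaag
Ifit3: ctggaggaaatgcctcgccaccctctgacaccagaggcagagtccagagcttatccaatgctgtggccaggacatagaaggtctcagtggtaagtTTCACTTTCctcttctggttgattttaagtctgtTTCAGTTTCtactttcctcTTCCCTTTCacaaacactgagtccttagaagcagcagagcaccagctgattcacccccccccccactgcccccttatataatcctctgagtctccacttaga
Cxcl10: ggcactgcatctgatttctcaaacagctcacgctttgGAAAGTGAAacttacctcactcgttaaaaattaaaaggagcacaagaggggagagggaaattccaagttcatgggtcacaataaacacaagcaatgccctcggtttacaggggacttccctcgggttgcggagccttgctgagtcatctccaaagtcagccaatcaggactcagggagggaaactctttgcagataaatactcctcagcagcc
Cxcl9: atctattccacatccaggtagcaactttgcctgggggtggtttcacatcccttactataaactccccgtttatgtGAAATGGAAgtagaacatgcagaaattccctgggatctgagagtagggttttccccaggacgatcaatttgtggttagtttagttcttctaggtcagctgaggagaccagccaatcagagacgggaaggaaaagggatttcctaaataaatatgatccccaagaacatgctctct

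Isg15 holds 3 overlapping matches that begin 78, 72 and 66 bases before the start, and Ifit3 holds 3 separate ones at 155, 121 and 102. Cxcl10 has 1 at 213 and Cxcl9 has 1 at 175. In promoters of 300 bases (250 before and 50 after the start) the core occurred in 8.56% of all 32841 promoters of the table, in 12 of 19 genes of a list skewed to type I interferon and in 9 of 13 genes of a list skewed to interferon-γ. It also occurred in 5 of 8 genes of a suppressive macrophage list. The interferon-γ element GAS (TTCNNNGAA) occurred in 8.30% of all promoters, in 3 of 19 type I and in 7 of 13 interferon-γ genes. A match is a description of letters and not a measured binding site.

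The type I genes were many times higher along the genetic route. Isg15 (ENSMUSG00000035692), a ubiquitin-like protein attached to other proteins in infected cells, was 5007 CPM in IRF3/7 and 626 CPM in COX2i + 5-AZA monocytes and macrophages, against 75.6 CPM in CTRL and 136 CPM in COX2i. Its log2 ratio was -3.00 (-3.02 to -2.98). Both routes were above CTRL and COX2i, and IRF3/7 was the highest of the 4 libraries. Ifit3, which binds viral RNA sensors, was 1334 CPM in IRF3/7 and 102 CPM in COX2i + 5-AZA (-3.71, -3.75 to -3.67), against 27.6 CPM in CTRL and 26.3 CPM in COX2i. Slfn4, a Schlafen protein of inflammatory myeloid cells, was 3712 against 182 CPM (-4.35, -4.38 to -4.32), against 24.2 CPM in CTRL and 33.7 CPM in COX2i. Isg20, an exonuclease, stood at 562 and 32.9 CPM (-4.09). Slfn4, Ifit3, Gbp2, H2-K1, the granzymes and other genes with close copies were not checked for probes that bind the copy, which leaves their levels uncertain. Of the 23 measured genes of the type I list all 23 were more than 2-fold higher in IRF3/7 and none in COX2i + 5-AZA, with a median log2 ratio of -3.04. Among all 11705 genes compared in monocytes and macrophages, 6.63% were more than 2-fold higher in IRF3/7 and 20.8% more than 2-fold higher in COX2i + 5-AZA. The median of all genes was 0.33, so that ratios near this value are no difference relative to the bulk of genes. In an alternative, Infl_Mono, Monocyte_1 and TAM_H2Ab1 were given the same weights in both libraries and the other monocyte and macrophage classes were left out. Then 1093 rather than 2430 genes were more than 2-fold higher in COX2i + 5-AZA, and the parts of the weights and of the classes left out were not separated. Measured from the median as reported, 11.1% of genes were more than 2-fold higher in IRF3/7 and 13.4% in COX2i + 5-AZA.

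The interferon-γ genes were divided in the pool, most leaning to IRF3/7 by less than the type I genes did. Cxcl9, the chemokine that draws activated T and NK cells, was higher along the drug route, with 602 CPM in COX2i + 5-AZA, 270 CPM in IRF3/7, 24.7 CPM in CTRL and 111 CPM in COX2i (log2 ratio 1.16, 1.11 to 1.20). Cxcl10 was higher in IRF3/7, with 1691 CPM against 599 CPM in COX2i + 5-AZA, 25.8 CPM in CTRL and 106 CPM in COX2i (-1.50, -1.52 to -1.47). The 2 neighbouring genes thus pointed in opposite directions. Gbp2, a guanylate-binding protein that attacks vacuoles of pathogens, was 1629 CPM in IRF3/7 and 1659.7 CPM in COX2i + 5-AZA (0.03), with 82.0 CPM in CTRL and 345 CPM in COX2i, and so stood above CTRL at about the same level in both. Nos2, the inducible nitric oxide synthase, was 115 and 127 CPM (0.14), a ratio that, like that of Gbp2, lies below the median of all genes. Irf1 was 1237 CPM in IRF3/7 and 733 CPM in COX2i + 5-AZA (-0.75). Slamf7 had the lowest ratio of the list (506 against 133 CPM, -1.92). Of 20 interferon-γ genes, 2 were more than 2-fold higher in COX2i + 5-AZA and 7 in IRF3/7, where 20.8% and 6.63% of all genes were. The median of the list was -0.60, with 14 of 20 below 0. Measured from the median of all genes, none of the 20 was more than 2-fold higher in COX2i + 5-AZA and 10 were in IRF3/7 (median -0.94), against 13.4% and 11.1% of all genes. Cxcl9 thus lay within 2-fold of the bulk of genes on that scale.

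**Figure D2:**
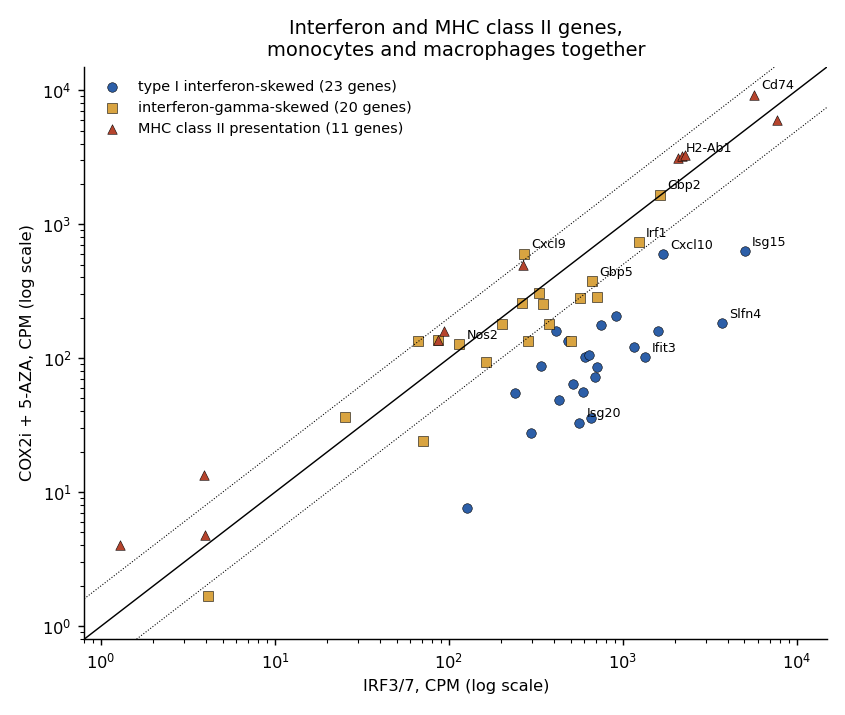
CPM in monocytes and macrophages of IRF3/7 (x axis) and COX2i + 5-AZA (y axis), both on log scales, for the genes of the type I list (circles), the interferon-γ list (squares) and the MHC class II list (triangles). The solid line marks equal levels and the dotted lines 2-fold differences, and all 23 type I genes lie below the lower dotted line.

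Because the monocyte and macrophage pool is made of different classes in the 2 libraries, the same genes were read within classes. In NK cells all 23 type I genes were more than 2-fold higher in IRF3/7 (median -2.47), where 2.51% of all genes were and 5.94% were higher in COX2i + 5-AZA. In cDC2 it was 22 of 23 (median -2.71), against 5.00% of all genes and 9.26% the other way, and in CCR7+ DC 21 of 22 (median -2.62), against 5.98% and 12.0%. In the new clustering at a resolution of 0.5 most cells of each of these 3 classes fell in 1 cluster from both libraries. At a resolution of 1 the cDC2 cluster held 95.9% of IRF3/7 cDC2 and 67.4% of COX2i + 5-AZA cDC2. In cDC2, Isg15 was 4717 CPM in IRF3/7 and 720 CPM in COX2i + 5-AZA, against 141 CPM in CTRL and 246 CPM in COX2i. In CCR7+ DC it was 5261 against 798 CPM, and in NK cells 1157 against 229.9 CPM. The classical monocyte genes moved the same way in these classes, summing to 7022 CPM in IRF3/7 and 4097 CPM in COX2i + 5-AZA in NK cells, to 7401 and 3525 CPM in cDC2 and to 4920 and 1296 CPM in CCR7+ DC. The type I list summed to 6589 and 1267 CPM, 19199 and 3262 CPM, and 15178 and 2922 CPM in the same order. Slfn4, a myeloid gene, was 615 CPM in IRF3/7 NK cells. The part of monocyte RNA in the type I ratios was not tested.

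Within the monocyte classes and TAM_H2Ab1 the type I difference was smaller. The median of the type I list was -0.91 in Infl_Mono (11 of 23 more than 2-fold higher in IRF3/7, where 4.69% of all genes were and 5.85% the other way). It was -1.45 in Monocyte_1 (19 of 23, against 7.90% and 7.97%) and -1.64 in TAM_H2Ab1 (21 of 23, against 6.06% and 8.25%). The background libraries were at or above the drug library for these sums. The type I list summed to 12896 CPM in Infl_Mono of COX2i + 5-AZA, against 15138 CPM in CTRL, 14819 CPM in COX2i and 25873 CPM in IRF3/7. In Monocyte_1 the sums were 3921, 5072, 4088 and 10893 CPM in the same order, and in TAM_H2Ab1 4385, 5362, 7799 and 13004 CPM. CTRL held 93 Infl_Mono, 44 Monocyte_1 and 19 TAM_H2Ab1 cells. Its Infl_Mono cells held much macrophage RNA, with the 6 TAM_C1q markers at 49690 CPM in CTRL, 16655 CPM in COX2i and 6492 CPM in COX2i + 5-AZA, and 34.4% of them fell in an Infl_Mono-dominated cluster at a resolution of 0.5, so the class was not like for like there either. The interferon-γ list had medians of 0.40, 0.10 and 0.51 in these classes. Cxcl9 was higher in COX2i + 5-AZA in each of them, with log2 ratios of 1.80 in Infl_Mono, 0.98 in Monocyte_1 and 1.78 in TAM_H2Ab1. Gbp2, level in the pool, was higher in COX2i + 5-AZA by 1.22, 1.16 and 1.20, and Cxcl10 was close to level at -0.25, -0.25 and -0.26. The 3 classes were then given the same weights in both libraries (52.1% Infl_Mono, 39.7% Monocyte_1 and 8.21% TAM_H2Ab1), with the other monocyte and macrophage classes left out. In this setting the type I median was -1.07 and the interferon-γ median turned to 0.28. Classes named Infl_Mono and Monocyte_1 were not like for like, since 78.4% and 81.7% of their IRF3/7 cells fell in the Infl_Mono-dominated cluster of the new clustering, and 58.8% and 70.6% of their COX2i + 5-AZA cells in the Monocyte_1-dominated one.

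In dendritic cells the ratio of Cxcl9 was larger. It was 571 CPM in COX2i + 5-AZA cDC2, 71.7 CPM in IRF3/7, 46.3 CPM in CTRL and 129 CPM in COX2i (log2 ratio 2.99, 2.68 to 3.32). In CCR7+ DC it was 813 CPM in COX2i + 5-AZA, 159 CPM in IRF3/7, 1114 CPM in CTRL and 389 CPM in COX2i (2.36, 1.84 to 2.92). There the IRF3/7 library was the lowest of the 4, although CTRL and COX2i held only 10 and 28 such cells. Macrophage RNA moved the same way in both classes. The 6 TAM_C1q markers summed to 2168 CPM in COX2i + 5-AZA and 481 CPM in IRF3/7 CCR7+ DC, where C1qa was 791 against 76.9 CPM (3.36), and to 1707 and 776 CPM in cDC2, and their part in the Cxcl9 ratios was not tested. Cxcl10 in cDC2 was 1028 CPM in IRF3/7 and 531 CPM in COX2i + 5-AZA (-0.95).

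**Figure D3:**
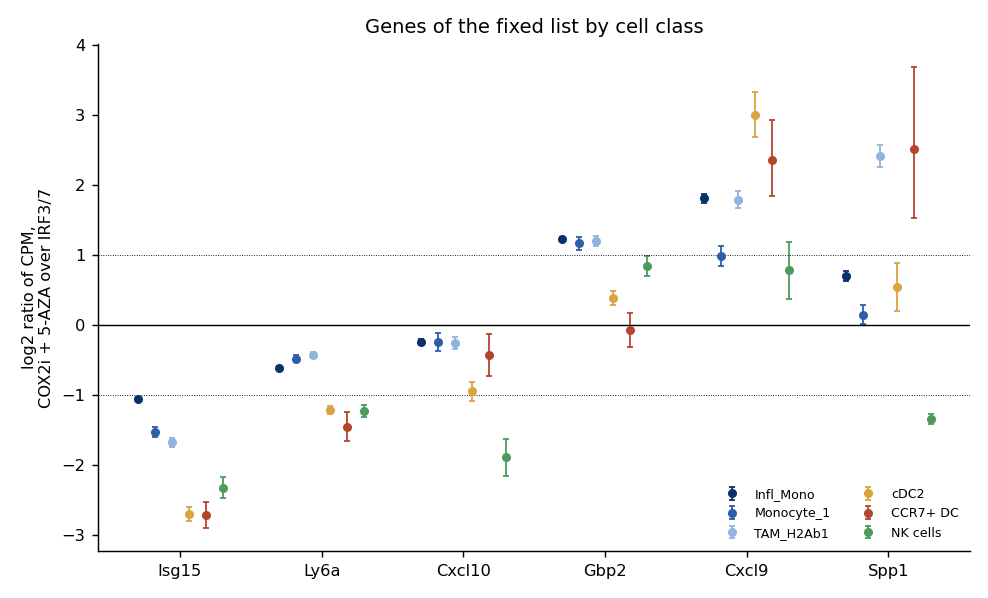
Log2 ratios of COX2i + 5-AZA over IRF3/7 (y axis) for 6 genes (x axis) in 6 cell classes (colours), with exact 95% intervals for counting error and dotted lines at 2-fold. Isg15 is negative in each class shown, Cxcl9 is positive in each, from 0.77 in NK cells to 2.99 in cDC2, and Spp1 is negative in NK cells (-1.35).

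Shares of cells with the transcript had the same order at equal depth. Each cell was thinned to 2000 UMIs, which left out 975 IRF3/7 and 492 COX2i + 5-AZA monocytes and macrophages with fewer. At least 1 Isg15 UMI was then found in 97.2% of IRF3/7 and 48.7% of COX2i + 5-AZA cells (97.9% and 70.2% unthinned). For Cxcl9 it was 12.5% and 30.1% (15.1% and 42.4% unthinned), and for Cxcl10 52.8% and 30.3% (57.7% and 43.7%). Among thinned NK cells 238 of 409 in IRF3/7 and 67 of 291 in COX2i + 5-AZA had an Isg15 UMI (68.8% and 30.7% of all NK cells unthinned). Any cell type can respond to interferon, so no class that should lack Isg15 was at hand, and the part of free RNA in its shares was not tested. NK cells, which should make little Cxcl9, gave thinned shares of 2.93% in IRF3/7 and 6.53% in COX2i + 5-AZA, at median depths of 2674.5 and 2606 UMIs against 3148 and 6300 in monocytes and macrophages.

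MHC class I and class II genes had medians of opposite sign in the pool. Of 17 MHC class I genes, 5 were more than 2-fold higher in IRF3/7 monocytes and macrophages and 1 in COX2i + 5-AZA (median -0.44), where 6.63% and 20.8% of all genes were. H2-K1, a classical class I heavy chain, was 1923 CPM in IRF3/7, 1058 CPM in COX2i + 5-AZA, 479 CPM in CTRL and 451 CPM in COX2i (-0.86), and Tap1, the peptide transporter, was 591 against 395 CPM (-0.58). Of 11 MHC class II genes, 2 were more than 2-fold higher in COX2i + 5-AZA and none in IRF3/7 (median 0.65, or 0.32 above all genes). The class II count is no larger a share than the 20.8% of all genes past 2-fold in that direction, and 10 of 11 class II genes were above 0. Cd74, the invariant chain, was 9264 CPM in COX2i + 5-AZA, 5692 CPM in IRF3/7, 2163 CPM in CTRL and 3791 CPM in COX2i (0.70). H2-Ab1 was 3128 against 2086 CPM (0.58), and Ciita 136 against 86.9 CPM (0.65). Both libraries were above CTRL for the genes named. The class I difference was not seen within Infl_Mono (median 0.05), Monocyte_1 (-0.14) or TAM_H2Ab1 (-0.08), where class II had medians of 0.41, -0.04 and 0.63. In cDC2, professional class II presenters, the class II median was -0.06, and H2-Ab1 was 15243 CPM in IRF3/7 and 14657 CPM in COX2i + 5-AZA.

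Chemokines other than Cxcl10 tended to be higher along the drug route. Of 20 chemokine genes, 12 were more than 2-fold higher in COX2i + 5-AZA monocytes and macrophages and 3 in IRF3/7 (median 1.15), where 20.8% and 6.63% of all genes were, or 8 and 3 measured from the median of all genes, where 13.4% and 11.1% were. The monocyte attractants Ccl7 and Ccl12 were 691 against 343 CPM (1.01) and 1174 against 534 CPM (1.14). Ccl24, an eosinophil attractant of alternatively activated macrophages, was 109.7 against 1.40 CPM (6.29, 5.73 to 6.92). The 3 genes higher in IRF3/7 were Cxcl10, Ccl4 (855 against 299 CPM, -1.52) and Ccl5 (315 against 153 CPM, -1.05), the latter pair being chemokines that draw T and NK cells. NK cells make both, and the 7 NK cell markers summed to 37.6 CPM in IRF3/7 and 16.7 CPM in COX2i + 5-AZA monocytes and macrophages, whose part in these ratios was not tested. Within Infl_Mono, Monocyte_1 and TAM_H2Ab1 the chemokine medians were -0.09, -0.07 and 0.66, so the lean to COX2i + 5-AZA was seen within the last of these and not within the monocyte classes.

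Genes of a list of T and NK cell support, which also holds the PD-1 ligands Cd274 and Pdcd1lg2, were mostly higher in IRF3/7. Of 17 genes of the list, 7 were more than 2-fold higher in IRF3/7 and 1 in COX2i + 5-AZA (median -0.76), where 6.63% and 20.8% of all genes were. This median is the ratio of Cd274 itself. The medians within Infl_Mono, Monocyte_1 and TAM_H2Ab1 were -0.25, -0.36 and -0.33. Il15, the survival cytokine of NK and CD8+ T cells, was 89.3 CPM in IRF3/7, 18.4 CPM in COX2i + 5-AZA, 11.7 CPM in CTRL and 14.4 CPM in COX2i (-2.28, -2.39 to -2.17). Within classes the Il15 difference was smaller, at 100.4 against 67.5 CPM in Infl_Mono (-0.57), -0.77 in Monocyte_1 and -0.92 in TAM_H2Ab1. Il18 was 199 against 75.1 CPM (-1.41) and Il27 80.5 against 33.2 CPM (-1.28). Of the ligands of PD-1, Cd274 was 578 CPM in IRF3/7 and 341 CPM in COX2i + 5-AZA (-0.76), against 24.6 CPM in CTRL and 39.7 CPM in COX2i. Within classes its log2 ratio was 0.21 in Infl_Mono, -0.06 in Monocyte_1 and -0.05 in TAM_H2Ab1, so the difference of the pool was not seen there. Pdcd1lg2 had the reverse order with 4.76 and 39.6 CPM (3.05) and was the gene of this list more than 2-fold higher in COX2i + 5-AZA. Among inflammatory cytokines, Il1b was 3053 CPM in IRF3/7 and 2030.4 CPM in COX2i + 5-AZA (-0.59), against 706 CPM in CTRL and 680 CPM in COX2i. Its log2 ratio was smaller in Infl_Mono (-0.21), Monocyte_1 (-0.20) and TAM_H2Ab1 (-0.25), and turned in macrophages as a sum (0.67), cDC2 (0.97) and CCR7+ DC (0.73). Il6 was 18.3 against 4.56 CPM (-2.00), Tnf 155 against 62.6 CPM (-1.31) and Il1a 7.39 against 40.8 CPM (2.47). Of the 12 cytokines of the list 4 were more than 2-fold higher in IRF3/7 and 1 in COX2i + 5-AZA (median -0.16), and the medians within Infl_Mono, Monocyte_1 and TAM_H2Ab1 were -0.04, 0.14 and 0.45.

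Among the largest differences in favour of the drug route were genes of mature and alternatively activated macrophages. Mgl2, a C-type lectin of alternatively activated macrophages and cDC2, was 158 CPM in COX2i + 5-AZA monocytes and macrophages, 0.280 CPM (5 UMIs) in IRF3/7, 22.3 CPM in CTRL and 84.2 CPM in COX2i (log2 ratio 9.14, 7.92 to 10.76). Retnla, a secreted protein induced by interleukin 4, was 80.0 CPM in COX2i + 5-AZA, 0.224 CPM (4 UMIs) in IRF3/7, 7.77 CPM in CTRL and 28.5 CPM in COX2i (8.48, 7.12 to 10.36). For both genes COX2i + 5-AZA was the highest of the 4 libraries and IRF3/7 the lowest. Mmp12, macrophage elastase, was likewise highest in COX2i + 5-AZA, with 648 CPM against 24.9 CPM in IRF3/7, 41.9 CPM in CTRL and 67.2 CPM in COX2i (4.70). A second pattern was that of a gene high in CTRL and lower, but still present, in COX2i + 5-AZA. Fcrls, an Fc receptor-like scavenger of tissue macrophages, was 2884 CPM in CTRL, 3397 CPM in COX2i, 973 CPM in COX2i + 5-AZA and 17.6 CPM in IRF3/7 (5.79). Gas6 (165 against 5.60 CPM, 4.88), the ligand of the clearance receptors Axl and Mertk, and Nt5e (67.4 against 2.02 CPM, 5.06), which makes adenosine, were also among the 10 genes with the largest ratios, as were B3gnt7 (5.39) and Cxcl14 (5.14).

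Gene lists leaned the same way in the pool. Of 20 genes of mature macrophages, 14 were more than 2-fold higher in COX2i + 5-AZA and none in IRF3/7 (median 2.19), and of 14 genes of suppressive macrophages 6 and none (median 0.81), where 20.8% of all genes were higher in COX2i + 5-AZA. The medians of the latter were -0.08 within Infl_Mono, 0.21 within Monocyte_1 and 1.33 within TAM_H2Ab1, so the direction of the pool was not seen within Infl_Mono. C1qa, the first complement component that marks mature macrophages, was 5307 CPM in COX2i + 5-AZA, 2294 CPM in IRF3/7, 6663 CPM in CTRL and 5946 CPM in COX2i (1.21). Its ratio was 0.30 in Infl_Mono and 0.43 in Monocyte_1, and turned in macrophages as a sum (6785 against 7992 CPM, -0.24) and in TAM_H2Ab1 (-0.08). Spp1, osteopontin, was 1759 CPM in COX2i + 5-AZA, 357 CPM in IRF3/7, 7348 CPM in CTRL and 6576 CPM in COX2i (2.30). Apoe did not follow, at 6492 and 7513 CPM (-0.21), and Gpnmb was higher in IRF3/7 (49.7 against 26.5 CPM, -0.91). The classes that hold these genes differ in share as given above, and the mature macrophage medians within Infl_Mono, Monocyte_1 and TAM_H2Ab1 were smaller, at 0.73, 0.27 and 0.96.

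**Figure D4:**
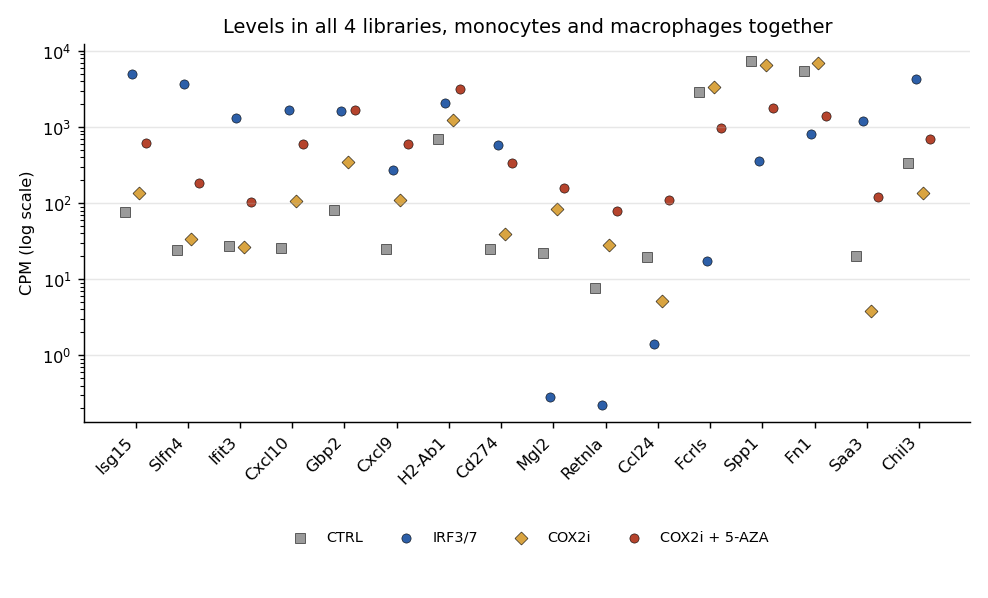
CPM (y axis, log scale) in monocytes and macrophages together for 16 genes (x axis), with 1 point for each of the 4 libraries and no error bars, as each is a single library. Isg15, Slfn4 and Ifit3 are highest in IRF3/7, Cxcl9, Mgl2 and Retnla are highest in COX2i + 5-AZA, and Fcrls is far lower in IRF3/7 (17.6 CPM) than in the other libraries.

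Macrophage transcripts were also found in cells that should lack them. In the NK cell class, C1qa was 1041 CPM in COX2i + 5-AZA and 206 CPM in IRF3/7 (log2 ratio 2.34). The summed level of the 6 TAM_C1q markers in NK cells was 3644 CPM in COX2i + 5-AZA, 1093 CPM in IRF3/7, 1017 CPM in CTRL and 1783 CPM in COX2i. After thinning to 2000 UMIs, which left out 159 IRF3/7 and 146 COX2i + 5-AZA NK cells, C1qa was found in 40.2% of COX2i + 5-AZA and 10.3% of IRF3/7 NK cells and in 77.9% and 40.7% of monocytes and macrophages, and Mgl2 in 5.15% and 0% of NK cells (0 of 409 cells, which allows a share of cells with a UMI of up to 0.733%) and in 13.3% and 0.0493% of monocytes and macrophages. For both genes the shares in monocytes and macrophages of COX2i + 5-AZA were above those in its NK cells. In IRF3/7 the share of C1qa was above that of NK cells, and Mgl2 was at the limit of detection in both. The median log2 ratio of the mature macrophage list was positive in all 8 cell sets compared, NK cells included (2.53). The part of free or neighbouring RNA in these ratios was not tested.

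Outside the interferon lists, genes of classical monocytes and alarmin and acute-phase genes were higher in IRF3/7. Of 14 classical monocyte genes, 11 were more than 2-fold higher in IRF3/7 monocytes and macrophages and none in COX2i + 5-AZA (median -1.51), where 6.63% and 20.8% of all genes were. Plac8 was 6882 against 1505 CPM (-2.19). Of 13 alarmin and acute-phase genes 9 were more than 2-fold higher in IRF3/7 and none in COX2i + 5-AZA (median -2.59), against the same 6.63% and 20.8% of all genes. Among them Chil3 was at 4257 and 707 CPM (-2.59), Saa3 at 1194 and 119 CPM (-3.32) and Hp at -3.21. Lrg1 (258 against 22.4 CPM, -3.52) and Ifitm6 (855 against 75.6 CPM, -3.50) were among the 10 lowest ratios. Within Infl_Mono, Monocyte_1 and TAM_H2Ab1 the classical monocyte medians were -0.37, -0.19 and -0.59, and the alarmin medians -0.16, 0.73 and -1.14, so the order of the alarmins turned within Monocyte_1. In Infl_Mono the summed level of the alarmin list was also higher in COX2i + 5-AZA (13850 against 12407 CPM), and the 6 neutrophil markers summed there to 4943 CPM in COX2i + 5-AZA and 1467 CPM in IRF3/7, whose part in these values was not tested. Genes were ranked from 200 UMIs over both libraries and 50 CPM in the higher one upward. Among these the lowest ratio was that of Lipg, endothelial lipase, at 78.1 CPM in IRF3/7 and 1.11 CPM in COX2i + 5-AZA (-6.14, -6.49 to -5.80). Slfn4 came next, and then Il1rl1, the receptor of the alarmin interleukin 33, with 74.6 against 3.67 CPM (-4.35). Il1rl1 was far higher in the non-immune class, at 9468 CPM in IRF3/7 and 749 CPM in COX2i + 5-AZA, which held 42456 of the 44061 Il1rl1 UMIs of the IRF3/7 library. The part of that RNA in the ratio of monocytes and macrophages was not tested. In TAM_H2Ab1, Lipg (374 CPM against 3 UMIs, -9.08, -11.36 to -7.53), the Fc receptor-like Fcrl5 (294 CPM against 2 UMIs, -9.32, -12.37 to -7.46) and the activating receptor Cd300e (739 against 13.4 CPM, -5.79) set the IRF3/7 cells apart from those of the same name in COX2i + 5-AZA.

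Cell cycle genes were higher in COX2i + 5-AZA than in IRF3/7 in the pool, but not in every class. The G2 and M phase list summed to 902 CPM in COX2i + 5-AZA and 133 CPM in IRF3/7, against 1153 CPM in CTRL and 2204 CPM in COX2i. In cDC2 the sums were 481, 117, 674 and 1370 CPM in the same order. In both sets COX2i + 5-AZA was thus below CTRL and COX2i, and IRF3/7 was the lowest. All 17 G2 and M phase genes were more than 2-fold higher in COX2i + 5-AZA monocytes and macrophages (median 2.86), as were 15 of 18 S phase genes (median 2.11) and 20.8% of all genes. Mki67, a marker of dividing cells, was 139 CPM in COX2i + 5-AZA and 19.0 CPM in IRF3/7 (2.87). In cDC2, 11 of 12 G2 and M phase genes were more than 2-fold higher in COX2i + 5-AZA (median 2.71), against 9.26% of all genes. In Infl_Mono it was 9 of 14 (median 1.37, against 5.85%) and in Monocyte_1 7 of 17 (median 0.84, against 7.97%). In TAM_H2Ab1, 11 of 17 were more than 2-fold higher in IRF3/7 (median -1.26), against 6.06% of all genes. In NK cells none of 17 passed 2-fold (median 0.27), where 5.94% and 2.51% of all genes did.

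Glycolysis and hypoxia genes leaned to COX2i + 5-AZA, with 6 of 16 more than 2-fold higher and none in IRF3/7 (median 0.83, or 0.50 above all genes), where 20.8% of all genes were higher. Measured from the median of all genes, 2 of 16 were, a share close to the 13.4% of all genes. Ldha, lactate dehydrogenase, was 844 against 370 CPM (1.19). In cDC2 it was 9 of 15 genes (median 1.23), in CCR7+ DC 8 of 11 (1.68) and in TAM_H2Ab1 10 of 15 (1.38), where 9.26%, 12.0% and 8.25% of all genes were. In Infl_Mono it was 2 of 15 (median 0.61), and in Monocyte_1 none of 16, with 11 of 16 below 0 (median -0.27). Immediate-early and stress genes, which also respond to tissue digestion, were higher in IRF3/7 monocytes and macrophages (7 of 16 against 1, median -0.90), with Fos at 3002 and 1288 CPM. Their median was -0.13 in NK cells and 0.28 in cDC2. In CCR7+ DC it was 0.51 (7 of 16 more than 2-fold higher in COX2i + 5-AZA and none in IRF3/7, against 12.0% and 5.98% of all genes). In the non-immune class it was 0.96 (8 and 1, against 11.4% and 4.61% of all genes). Of 11 genes of iron and heme handling 4 were more than 2-fold higher in COX2i + 5-AZA and 2 in IRF3/7 (median 0.59), a median that was 0.26 measured from that of all genes. Of 8 patrolling monocyte genes none was more than 2-fold higher in COX2i + 5-AZA and 4 were in IRF3/7 (median -0.93), but the median was 0.57 within Infl_Mono, 0.00 within Monocyte_1 and -0.52 within TAM_H2Ab1, and the class Monocyte_3 held 2.79% of COX2i + 5-AZA and 0.158% of IRF3/7 cells (ratio 17.7, 9.46 to 37.2). For these pool counts the shares of all genes are again 20.8% and 6.63%.

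**Figure D5:**
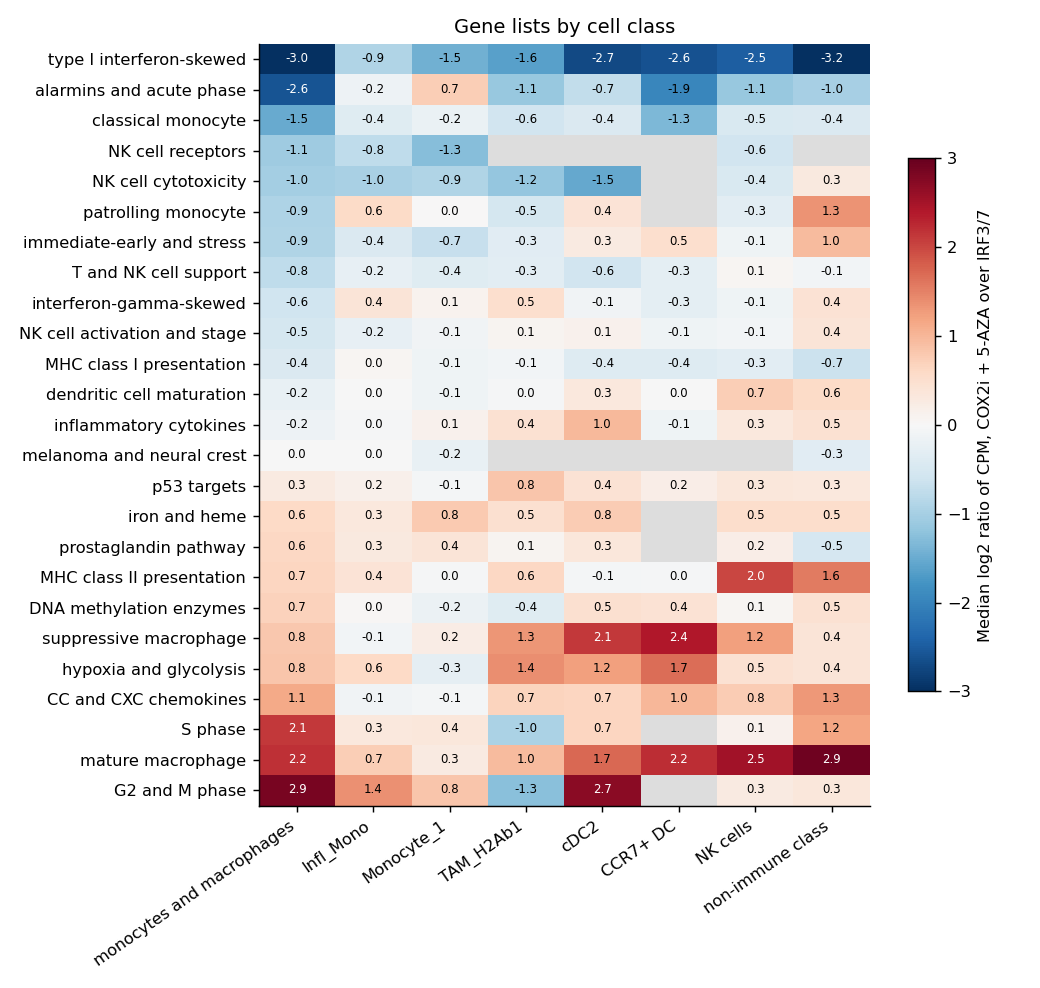
Median log2 ratio of COX2i + 5-AZA over IRF3/7, as colour and printed value, for each gene list (rows) in 8 cell sets (columns), with grey where fewer than 5 genes could be compared. The type I list is negative throughout, from -0.91 in Infl_Mono to -3.21 in the non-immune class, and the mature macrophage list is positive throughout.

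Dendritic cells had their largest ratio for a chemokine. Ccl17 (ENSMUSG00000031780, chromosome 8, 94810453 to 94812036, plus strand), a CCR4 ligand that draws regulatory and type 2 helper T cells, was 641 CPM in COX2i + 5-AZA cDC2, 2.29 CPM (3 UMIs) in IRF3/7, 62.1 CPM in CTRL and 421 CPM in COX2i (log2 ratio 8.13, 6.58 to 10.41). In CCR7+ DC it was 1922 against 9.62 CPM (2 UMIs in IRF3/7, 7.64, 5.78 to 10.69). Ccl22, which binds the same receptor, was 3859 CPM in COX2i + 5-AZA CCR7+ DC, 505 CPM in IRF3/7, 2297 CPM in CTRL and 2091 CPM in COX2i (2.93, 2.65 to 3.23). The IRF3/7 library was thus the lowest of the 4 for Ccl17 in cDC2 and for Ccl22 in CCR7+ DC. Mgl2 in cDC2 was 1104 CPM in COX2i + 5-AZA, 75.5 CPM in IRF3/7, 875 CPM in CTRL and 1543 CPM in COX2i (3.87). Mmp12 (4.62), Mrc1 (4.33) and the fusion protein Dcstamp (5.39) were the other genes with the largest ratios in cDC2. The TAM_C1q markers were higher in COX2i + 5-AZA cDC2 as given above, and the part of macrophage RNA in these 3 ratios was not tested. In CCR7+ DC the maturation genes showed no common direction (5 of 21 more than 2-fold higher in COX2i + 5-AZA and 3 in IRF3/7, against 12.0% and 5.98% of all genes, median -0.01). Ccr7 itself was 5214 CPM in COX2i + 5-AZA and 4838 CPM in IRF3/7 (0.11, with an interval that includes 0), and Il12b, a subunit of interleukin 12, was 211 against 500.1 CPM (-1.24, -1.67 to -0.82).

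NK cells of the IRF3/7 library held more RNA of several effector molecules. Ifng, encoding interferon-γ, was 418 CPM in IRF3/7 and 199 CPM in COX2i + 5-AZA (log2 ratio -1.07, -1.25 to -0.89). Gzmb, granzyme B, was 10591 against 6179.8 CPM (-0.78, -0.81 to -0.74), and Prf1, the pore-forming perforin, 3601 against 2649 CPM (-0.44). Gzmc went the other way, with 12512 CPM in COX2i + 5-AZA and 5369 CPM in IRF3/7 (1.22, 1.19 to 1.25). Of 20 cytotoxicity genes, 3 were more than 2-fold higher in IRF3/7 and 1 in COX2i + 5-AZA (median -0.45), where 2.51% and 5.94% of all genes were, and of 15 receptor genes none passed 2-fold (median -0.58). CTRL and COX2i held 11 and 50 NK cells and are not used for levels here. The summed level of the 7 NK cell markers was 20337 CPM in IRF3/7 and 13860.5 CPM in COX2i + 5-AZA, and the latter held more myeloid RNA as given above; their part in these ratios was not tested. Interferon-γ RNA in NK cells was lower in the library with more Cxcl9 in myeloid cells, and whether these levels are linked was not tested.

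The non-immune class, in which the transgenes were highest, showed the type I difference as well. Of 23 type I genes, 22 were more than 2-fold higher in IRF3/7 (median -3.21), where 4.61% of all genes were and 11.4% were higher in COX2i + 5-AZA. Isg15 was 1601 CPM in IRF3/7 and 146 CPM in COX2i + 5-AZA. Cxcl10 was level at 456 and 470.3 CPM (0.04), and Cxcl9 was 33.5 against 218 CPM (2.71). Ptgs2, the target of celecoxib, was 3436 CPM in IRF3/7 and 653 CPM in COX2i + 5-AZA (-2.40). A list of prostaglandin genes summed in this class to 5512 CPM in IRF3/7 and 1471 CPM in COX2i + 5-AZA, against 1777 CPM in CTRL and 1058 CPM in COX2i. For this sum IRF3/7 was the highest, and COX2i + 5-AZA lay between CTRL and COX2i. The 5 largest ratios of the class were those of Mmp13 (78.9 CPM against 1 UMI in IRF3/7, 8.47, 5.97 to 13.78), Postn (587 against 6.24 CPM, 6.56), Mmp12 (6.23), Ch25h (5.99) and Mrc1 (5.11). Postn encodes a matrix protein, and Mmp12 and Mrc1 are macrophage genes. The 6 TAM_C1q markers summed to 1021 CPM in COX2i + 5-AZA and 269.8 CPM in IRF3/7 in this class, with C1qa at 342 and 35.9 CPM (3.25), and the part of macrophage RNA in these ratios and in that of Cxcl9 was not tested. In the new clustering 142 of the 172 IRF3/7 cells of this class fell in a cluster other than the one that held 147 of the 160 COX2i + 5-AZA cells, and its ratios are given for the class as labelled.

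Genes of the drug targets in immune cells were examined last. In monocytes and macrophages Ptgs2 was 467 CPM in IRF3/7, 459 CPM in COX2i + 5-AZA, 242 CPM in CTRL and 140 CPM in COX2i (-0.02, -0.06 to 0.01), with log2 ratios of 0.38 in Infl_Mono, 0.36 in Monocyte_1 and 1.07 in TAM_H2Ab1. Ptgs1, the constitutive cyclooxygenase, was 55.1 CPM in COX2i + 5-AZA and 5.94 CPM in IRF3/7 (3.21). Of 13 prostaglandin genes, 4 were more than 2-fold higher in COX2i + 5-AZA and 1 in IRF3/7 (median 0.61), where 20.8% and 6.63% of all genes were, or 3 and 2 measured from the median of all genes. Dnmt1, the maintenance DNA methyltransferase, was 122 against 70.7 CPM (0.78), a direction not seen in Infl_Mono (-0.03), Monocyte_1 (-0.33) or TAM_H2Ab1 (-0.75), and Tet2, which oxidises methylcytosine, 65.2 against 148 CPM (-1.18). Of 8 such genes 1 was more than 2-fold higher in either direction (median 0.69). Germline genes that DNA methylation keeps silent, a readout of demethylation, could hardly be read, since 4 of 14 were in the table and 2 reached the 20 UMIs needed. Of 16 p53 targets 4 were more than 2-fold higher in COX2i + 5-AZA and 1 in IRF3/7, close to the 20.8% and 6.63% of all genes (median 0.27, which is -0.07 measured from the median of all genes). RNA levels of these enzymes do not measure their activity, and methylation was not measured in these libraries.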

How the data were processed

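CD45+ live cells were sorted by the study from pools of 3 tumours per group, fixed, and assayed with the Chromium Flex kit, which ligates probe pairs on RNA and counts them by UMI. Per the study's methods and the submitters' processing notes, the authors ran Cell Ranger 7.1.0 on mm10 (GRCm38) probes, kept cells by detected genes and by mitochondrial and ribosomal content, removed ribosomal and mitochondrial genes, and named clusters by marker genes. The deposited values are raw counts of UMIs for 12584 genes in 34447 cells, with no normalisation by the authors, and a deposited cell table gives library and class. No doublet caller was run here.

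Counts were summed per library and class and divided by the total UMIs of those cells (CPM). Shares carry exact Clopper-Pearson intervals, ratios exact conditional intervals at a level of 95%, and shares of 0 the limit of 3 counts (Python 3.11.15, scipy 1.17.1), and these leave out the spread between tumours. Genes were compared from 20 UMIs over both libraries upward, zero counts in a library were replaced by a floor of 3 counts, and 2-fold was a descriptive limit. With 1 library per group no test was run. Classes with at least 50 cells in both libraries were compared. Monocytes are Monocyte_1, Monocyte_3 and Infl_Mono, and macrophages are Macro, Ctsk_Macro and the TAM classes. CCR7+ DC is the class named DC3, and the non-immune class the one named Myofibrobl. Cells were clustered again without 137 interferon-regulated genes (leidenalg 0.10.2). The statistics were tested on simulated data. Gene positions are from GENCODE on GRCm38.

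Named genes were the 10 with the largest and the 10 with the smallest log2 ratio in monocytes and macrophages (5 and 5 in other cell sets) from 200 UMIs over both libraries and 50 CPM in the higher one upward, the 4 most abundant genes and both extremes of each list, and a fixed set of genes of the study's questions, of which Ifnb1 was not analysed here. Other genes named were picked from the lists, or as partners of named genes, after their values were seen. The members, lists and comparisons were chosen with earlier results of these data known, and the lists overlap. Alternatives were other scalings, cells with more than 2000 genes, leaving out the 5% of cells with most UMIs, unthinned cells and rebuilt clusters. A further one, equal class weights, used Infl_Mono, Monocyte_1 and TAM_H2Ab1 and left out the other monocyte and macrophage classes.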

Additional observations from a re-analysis of the deposited data

Results flagged for a closer look

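Opposite directions in different cell classes, each past 2-fold, were found for 3 results. The differences between classes were not tested, since each rests on 1 library per group. The median log2 ratio of COX2i + 5-AZA over IRF3/7 for the G2 and M phase genes was 2.71 in cDC2 and -1.26 in TAM_H2Ab1. For Ptgs2, the gene of COX2, it was 1.34 in cDC2 and -2.40 in the non-immune class. For Spp1, osteopontin, it was 2.41 in TAM_H2Ab1 and -1.35 in NK cells. At a resolution of 0.5, 93.5% of the IRF3/7 cells of TAM_H2Ab1 lay in a single rebuilt cluster. The COX2i + 5-AZA cells of that class were spread, with 29.1% in their largest cluster, which was a different one. In the non-immune class most cells of the IRF3/7 library lay in a different rebuilt cluster from most of those of COX2i + 5-AZA.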

How the results depend on the processing

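With 1 library per group no library could be left out, and the spread between tumours is not known. No paired analysis was possible because each group has 1 library and no test was made. With only cells of more than 2000 genes, the share ratio of COX2i + 5-AZA over IRF3/7 was 0.754 for monocytes, 3.02 for macrophages, 26.3 for suppressive TAMs, 0.185 for NK cells, 1.19 for CCR7+ DC, 0.505 for cDC1, 15.7 for cycling TAMs and 0.381 for TAM_H2Ab1, and that of neutrophils turned to 0.846. With clusters rebuilt without interferon genes, it was 0.501 and 0.683 for monocytes and 32.3 and 19.5 for macrophages at the lower and the higher resolution (0.5 and 1), TAM_H2Ab1 turned to 6.78 at the lower and was 0.0243 at the higher, and suppressive TAMs were 21.9 and cDC2 0.529 at the higher. Without the 5% of cells with most UMIs the ratio of suppressive TAMs was 72.2. With equal class weights for Infl_Mono, Monocyte_1 and TAM_H2Ab1, and the other monocyte and macrophage classes left out, the type I median was -1.07 and the interferon-γ median turned to 0.28. With only cells of more than 2000 genes, the Ifng log2 ratio in Infl_Mono (0.0591) and the Prf1 log2 ratio in Infl_Mono (0.0185) changed sign. In Monocyte_1 the genes more than 2-fold higher in IRF3/7 then numbered 2528 in place of 826, and in CCR7+ DC 749 in place of 298. Median-of-ratios size factors raised or lowered all genes of a cell set together, by 0.33 on the log2 scale in monocytes and macrophages, 0.25 in the non-immune class and 0.12 in cDC2. Of list medians under these settings, 516 stayed within 1.5-fold and 44 moved, and of single-gene ratios 351 stayed within their counting interval, 285 moved and the 2 named changed sign. Median-of-ratios size factors gave 228 of the 516, and as their shifts are below 1.5-fold these could not move. Under the equal class weights 12 list medians moved and 14 stayed, and 34 single-gene ratios moved and 4 stayed. The shallower IRF3/7 library limits what can be said of low genes there, where 3 UMIs over all cells correspond to 0.114 CPM.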
